A study of Xenopus laevis with 60 samples.

Results

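The 20 genes described here are the L and S copies of 10 symbols that encode early regulators of the amphibian epidermis: tfap2a and tfap2c of the AP-2 family, grhl1 and grhl3 of the Grainyhead-like family, dlx3 and dlx5 of the Distal-less family, and foxi1, foxi2, foxi4.1 and foxi4.2 of the Foxi family. They are every row that carried one of these names with a .L or .S suffix, and the names were picked with earlier results of these data known. All 20 had an exon row among the 49580 genes with an expression value and an intron row among the 39155 genes with an intron value. Xenopus laevis is an allotetraploid frog whose L and S subgenomes came from different ancestral species, so most of its genes have 2 copies (homeologs). The exon rows of all 20 genes passed the filter on low counts. The intron rows of 17 passed, the exceptions being foxi1.S, foxi2.L and foxi2.S.

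In the early frog embryo cells of the animal side form the ectoderm, which takes an epidermal fate where BMP signalling is active and a neural fate where it is blocked. AP-2, Grainyhead-like and Distal-less proteins are transcription factors that act below BMP in the non-neural ectoderm, where AP-2 and Grainyhead-like proteins activate keratin genes. Foxi proteins are forkhead factors of the animal side. In Xenopus, foxi2 is supplied by the mother and activates another Foxi gene, described as foxi1e or ema, which is needed for ectoderm to form.

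RNA was measured in 60 libraries of 29 groups, each library made from 2 whole wild-type embryos of the Xla.NXR-WTNXR line, with exon reads and intron reads counted separately. Untreated embryos were sampled at stages 5 and 8 (2 libraries each), 6 and 7 (1 each), 9 (2 in collection A and 1 in collection E) and 10.5 (2). For stages 5, 6, 7, 8 and 10.5 the labels name no collection. Stage and collection therefore cannot be told apart in comparisons between stages. Collections A and B held embryos treated with the solvent DMSO or with 20 µM triptolide, a blocker of RNA polymerase II transcription, added at stage 1 (2 libraries each). Collection B also held embryos given 500 µg/mL cycloheximide, a blocker of translation, at stage 8, so that transcription could proceed without newly made proteins (2 libraries). All treated or injected embryos were labelled as stage 9, at 8 hours post fertilization. The authors timed their collection by untreated embryos of the same batch. They also report that cycloheximide keeps embryos from progressing to that stage. The part of this arrest in differences between embryos with and without cycloheximide was not tested.

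The other collections held embryos injected with morpholinos (MO), antisense oligonucleotides that block translation of a chosen transcript, here the pluripotency factors pou5f3.2, pou5f3.3 and sox3. Each was compared with GFP MO, a control oligonucleotide, at 80 ng in collections C, D and E and 120 ng in F, G and H. Collection G compared pou5f3.3 plus sox3 MO (40 ng each, with 40 ng of GFP MO) with GFP MO in 3 libraries each, and collection E did so, at 40 ng each, with 1 library each. In collection F the double MO was pou5f3.2 plus pou5f3.3 MO at 40 ng each, with 40 ng of GFP MO. The triple MO was all 3 MO at 40 ng each. Both were compared with GFP MO in 3 libraries each, and 3 further libraries held triple MO with cycloheximide. In collections C and D every embryo also had cycloheximide. Collection C held pou5f3.3 MO or sox3 MO at 40 ng, each with 40 ng of GFP MO, and both at 40 ng each. Collection D held both at 55 ng and 75 ng. Each group of C and D had 2 libraries. Collection H held 7 libraries whose cycloheximide-treated members were labelled as discarded. The main fit left it out, and a further fit of all libraries included it. Since the morpholinos act on translation, transcript levels of their targets do not check the injections.

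Exon levels are in TPM (transcript counts per length, scaled to a common total), which are scaled by transcript length and can be compared between genes. Intron levels are in RPKM (intron reads per length, scaled by each library's exon counts) and follow unspliced RNA, which is made in the embryo and is not stored in the egg in quantity. Libraries held 6809284 to 25358689 exon counts and 36762 to 1637909 intron counts. Differences are log2 ratios from edgeR's quasi-likelihood test, adjusted over all exon and intron rows together. A gene was called when either row had an adjusted p below 0.05 and a difference of at least 1.5 on the log2 scale. A fold against a group at 0 is given as a lower bound, with 3 counts per library put in its place. In whole embryos, fewer cells that express a gene and less RNA per cell cannot be told apart. Libraries of 1 group were embryo sets from the same experimental day where the methods say so, so p-values do not cover differences between clutches.

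At stage 5, before the embryo's own genome is broadly transcribed, the 20 genes fell into those with abundant transcript and those near 0. The exons of tfap2c, grhl1 and foxi2 were abundant in both copies. For tfap2c.L, an AP-2 gene, stage 5 exons were at 166 and 161 TPM, and for grhl1.S at 111 and 106 TPM. The exons of foxi2.S lay at 200.4 and 199.8 TPM and those of foxi2.L at 139.8 and 139.7 TPM. The other 14 genes lay at or below 1.27 TPM in both stage 5 libraries, the highest being foxi1.L at 1.27 and 0.729 TPM.

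At stage 8 most of the genes that were near 0 at stage 5 were still near 0. Of the 20 genes, 2 were higher than at stage 5 and 0 lower, where 8.31% and 4.39% of all genes tested were called higher and lower. They were foxi4.2.S by its exons, at 1.37 and 1.13 TPM, and tfap2a.S by its introns. For tfap2a.S the stage 8 libraries held only 1 and 5 intron reads (0.01 and 0.049 RPKM) and 0 exon reads. The number of genes called was 1 without stage 5 replicate 1 and 6 by DESeq2.

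By stage 9 in collection A, 16 of the 20 genes were higher than at stage 5 and 0 were lower, where 35.4% and 6.44% of all genes were. The exceptions were dlx3.L, foxi2.L, foxi2.S and foxi4.1.S. Among the 16, foxi4.1.L had exon levels that overlapped those with triptolide in the same collection. Transcripts of foxi4.2.S, a Foxi gene of the ectoderm, reached 95.1 and 95.5 TPM from 0 reads in both stage 5 libraries, at least 475-fold higher. The foxi4.2.L copy reached 55.9 and 54.8 TPM, at least 270-fold higher. The tfap2a.S copy stood at 14.8 and 15.1 TPM, at least 230-fold higher. Copies of grhl3, which in the mouse is needed for the skin barrier and for neural tube closure, lay at 13.7 and 19.5 TPM (L) and 18.07 and 21.9 TPM (S). The L copy of foxi1 was at 18.5 and 18.9 TPM and its S copy at 1.93 and 1.74 TPM. For dlx5 the order of the copies was the other way, at 0.8 and 0.873 TPM for L and 13.1 and 13.3 TPM for S.

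For the copies of tfap2c and grhl1, whose exons were already abundant, the change called was in the introns. The introns of tfap2c.L rose from 0.034 and 0.01 RPKM at stage 5 to 5.71 and 5.73 at stage 9, while its exons lay between 154 and 166 TPM at both stages. The introns of grhl1.S rose from 0.037 and 0.09 to 0.799 and 0.698 RPKM. The authors' intron models leave out regions covered at stage 5, a choice that by construction favours a rise over that stage.

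**Figure D1:**
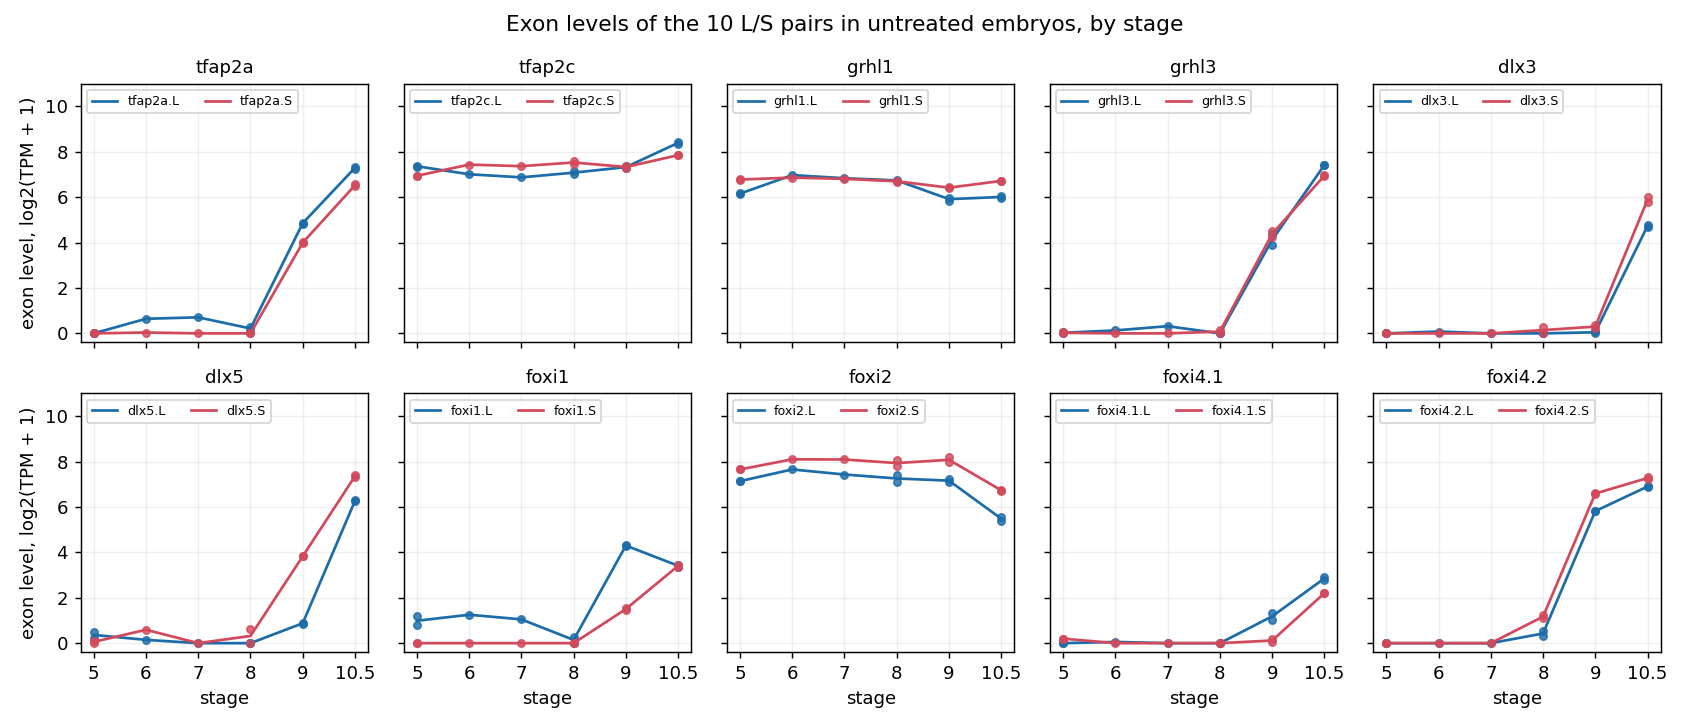
Exon levels of the 10 L/S pairs in untreated embryos against stage, on a log2(TPM + 1) scale, with each library as a point, the L copy in blue, the S copy in red and lines through the means of the log2 values. Both copies of tfap2c, grhl1 and foxi2 start high, tfap2a, grhl3, foxi4.2, dlx5.S and foxi1.L rise by stage 9, and dlx3 and dlx5.L stay under 1 TPM until stage 9 and are far higher at stage 10.5.

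At stage 10.5, 18 of the 20 genes were higher than at stage 5 and 1, foxi2.L, was lower (44.3% and 19.6% of all genes). Between stage 9 and stage 10.5, the start of gastrulation, 13 of the 20 genes rose and 3 fell, against 25.7% and 14% of all genes. The genes that rose were both copies of tfap2a, grhl1, grhl3, dlx3, dlx5 and foxi4.1, and foxi1.S. The 2 dlx5 copies, homeodomain genes of the border between neural and non-neural ectoderm, reached 75 and 77.3 TPM (L) and 156 and 170 TPM (S). The difference over stage 9 was 6.62 ± 0.22 (log2 ± SE) for dlx5.L (edgeR adjusted p = 3.6e-32) and 3.76 ± 0.14 for dlx5.S. The dlx3 copies, which had stayed below 1 TPM in every stage 9 library of collection A, reached 24.9 and 26.3 TPM (L) and 53.7 and 63.3 TPM (S).

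Both copies of grhl3 and tfap2a, which like dlx5.S were already on at stage 9, rose by less on the log2 scale than dlx5.L did. Both grhl3 copies climbed to between 121 and 171 TPM, by 3.49 ± 0.14 for grhl3.L (edgeR adjusted p = 2e-28). Levels of tfap2a.S went to 88.6 and 93.7 TPM. The introns of grhl1.L rose from 0.321 and 0.299 to 2.42 and 2.45 RPKM, though its exons lay between 47.6 and 143 TPM in all libraries.

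The genes that fell were foxi2.L by its exons and both foxi4.2 copies by their introns. Transcript of foxi2.L dropped from 148 and 135 to 46.5 and 41.1 TPM (log2 difference -1.56 ± 0.09, edgeR adjusted p = 2e-20). With DESeq2's scaling the value was -1.26 and short of the fold threshold. Its S copy moved by -1.22, also short of it. The introns of foxi4.2.S were at 17.6 and 24.7 RPKM at stage 9 and 1.44 and 1.58 RPKM at stage 10.5, a difference of -3.86 ± 0.27 (edgeR adjusted p = 1.9e-17), while its exons were at 151 and 157 TPM at stage 10.5. Those of foxi4.2.L differed by -2.57 ± 0.24, with exons at 115 and 122 TPM. For this pair, then, exon levels were higher and intron levels lower at the later stage. The median exon difference of all genes between stages 9 and 10.5 was -0.21 under the main scaling and 0.05 under DESeq2's, and 7107 genes higher and 3878 lower became 8285 and 2767.

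With transcription blocked, the genes near 0 at stage 5 that had risen by stage 9, and the introns of tfap2c and grhl1, were mostly low. DMSO alone changed 0 of the 20 genes against untreated embryos of collection A, where 0.0109% of all genes were called in each direction. At an unadjusted p below 0.05 the number was 1, and by DESeq2 it was 0. Against triptolide, 15 of the 20 genes were higher in DMSO and 0 lower in collection A (27.4% and 0.167% of all genes) and in collection B (29.8% and 0.188%). The genes were the same in both collections, namely all but dlx3.L, both foxi2 copies and both foxi4.1 copies. The effect of triptolide differed between the collections for 0 of the 20 (0.54% of all genes in either direction) by edgeR, for 5 at an unadjusted p below 0.05 and for 1 by DESeq2.

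In collection B, tfap2a.S was at 7.57 and 7.48 TPM in DMSO and 0.062 and 0.039 in triptolide. Levels of grhl3.L were 19.1 and 17.3 TPM in DMSO and 0 and 0.033 in triptolide, a log2 difference of 9.49. The introns of tfap2c.L were at 2.4 and 2.13 RPKM in DMSO and 0.019 and 0.038 in triptolide, a log2 difference of 6.15. Every DMSO library thus lay far above every triptolide library for these genes. The call of dlx3.S rested on introns of low level and was lost without DMSO replicate 2. The exons of dlx5.L overlapped between DMSO and triptolide. Its introns had 5 and 7 reads in the DMSO libraries and 0 in both triptolide libraries.

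These 15 genes met the definition of activated at stage 9 used here, which was to be higher at stage 9 than at stage 5 and higher in DMSO than in triptolide in both collections. Over all genes 24.3% met it. The abundant exon transcripts of tfap2c, grhl1 and foxi2 were not lower with triptolide, with DMSO minus triptolide differences of -0.38 to -0.03 in both collections, and the foxi2 copies had no intron row that passed the filter.

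Cycloheximide asks which genes can be switched on by proteins already present at stage 8. Of the 20 genes, 14 exceeded their triptolide levels in the cycloheximide libraries of collection B and 0 lay below them, where 14.2% and 0.496% of all genes were. The 14 were all the activated genes but dlx3.S. Over all genes, 11.6% were activated and higher with cycloheximide than with triptolide. For foxi1.L, at 2.04 and 1.69 TPM with cycloheximide, the call was lost without replicate 1 of either group.

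The size of the cycloheximide level relative to DMSO varied by gene. Of the 20 genes, 7 were higher in DMSO (20.6% of all genes) and 1 was lower (2.21%). Neither tfap2a copy was called, with tfap2a.S at 5.49 and 6.86 TPM in cycloheximide. The level of tfap2a.L was 9.44 and 8.81 TPM against 18.6 and 16.7 in DMSO, a log2 difference of 1.01 ± 0.15 (edgeR adjusted p = 1.7e-07) that fell short of the fold threshold. The grhl3 copies stood lower, grhl3.L at 5.6 and 5.53 TPM (1.77 ± 0.19 higher in DMSO, edgeR adjusted p = 3e-11) and grhl3.S at 3.02 and 2.18 TPM (2.39 higher in DMSO).

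Among Foxi genes, foxi1.L and both foxi4.2 copies were called. From 28.8 and 30.5 TPM in DMSO, foxi1.L was at 2.04 and 1.69 TPM in cycloheximide, a log2 difference of 4.03 ± 0.30 (edgeR adjusted p = 1.1e-16). The foxi4.2 copies were at 12.219 and 12.97 TPM (L) and 17.5 and 19.4 TPM (S), lower by 2.49 and 2.64 than in DMSO. Among the introns, tfap2c.S went from 1.78 and 1.59 RPKM in DMSO to 0.312 and 0.195 in cycloheximide, while tfap2c.L went from 2.4 and 2.13 to 2.06 and 1.25 RPKM and was not called. Introns of all genes were also higher in DMSO, by a median log2 difference of 1.79.

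The exception was dlx5.L. It lay at 0.343 and 0.715 TPM in DMSO, 0.241 and 0.377 in triptolide and 7.66 and 11.1 in cycloheximide. In exons, then, it stood out only with cycloheximide. It was lower in DMSO than in cycloheximide by 4.01 (log2 difference -4.01 ± 0.36, edgeR adjusted p = 6.4e-14). Its introns moved the same way, at 0.089 and 0.11 RPKM in DMSO, 2.21 and 3.24 in cycloheximide and 0 in both triptolide libraries. The S copy was at 5.9 and 8.5 TPM in DMSO and 4.89 and 7.03 in cycloheximide, a difference of 0.37 ± 0.25 (edgeR adjusted p = 0.29).

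**Figure D2:**
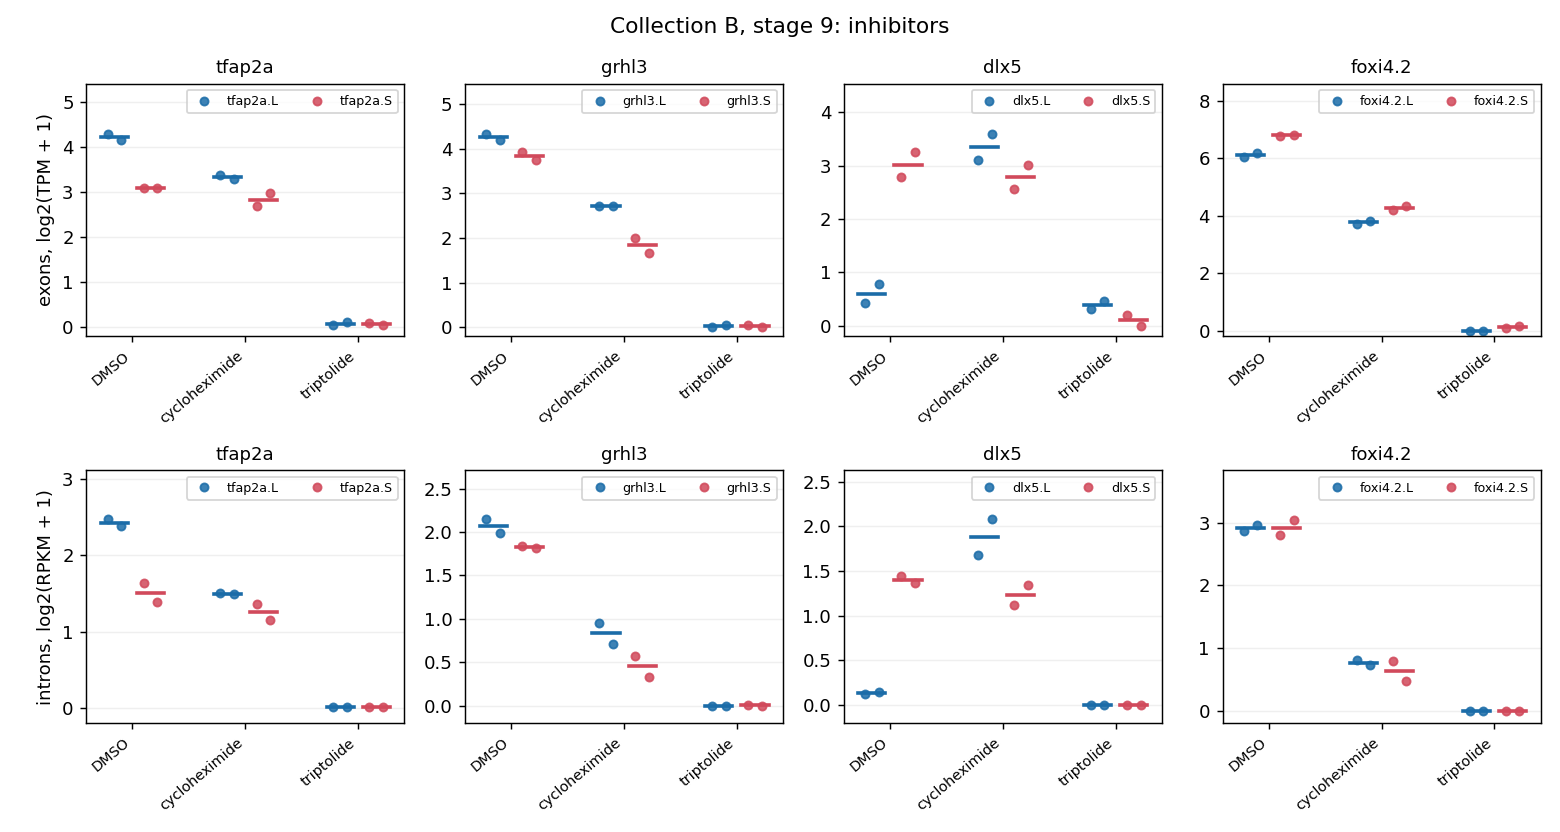
Levels of 4 pairs in collection B, with exons above on a log2(TPM + 1) scale and introns below on a log2(RPKM + 1) scale. Each point is a library and each bar the mean of the log2 values, and dlx5.L is the gene whose cycloheximide libraries lie above its DMSO libraries.

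The pou5f3.3 plus sox3 MO of collection G split the families. Of the 20 genes, 3 were higher than with GFP MO (dlx3.S, dlx5.L and dlx5.S) and 4 were lower (both copies of tfap2a and of tfap2c), where 3.41% and 1.45% of all genes were. Levels of tfap2a.L fell from 8.89, 5.72 and 6.69 TPM to 0.741, 0.708 and 1.06 TPM (-3.17 ± 0.25, edgeR adjusted p = 2e-14). The tfap2a.S copy fell from 3.13, 2.75 and 2.35 TPM to 0.502, 0.283 and 0.266 TPM (-3.08 ± 0.28, edgeR adjusted p = 3.5e-12). No morphant library reached the lowest control library in either copy. The introns of tfap2c.S fell from 0.545, 0.689 and 0.692 RPKM to 0.088, 0.109 and 0.08 RPKM (-2.86 ± 0.25). Those of tfap2c.L, at -1.52 ± 0.16, sat at the fold threshold and fell short of it in 7 alternatives, the smallest difference being -1.33.

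The Distal-less genes moved the other way. Levels of dlx5.L rose from 0.434, 0.151 and 0.327 TPM to 3.58, 2.42 and 2.95 TPM (3.12 ± 0.51, edgeR adjusted p = 4.6e-06). For dlx5.S they were 3.19, 3.76 and 6.11 TPM with GFP MO and 12.3, 11.9 and 10.604 TPM in the morphants. Its call came from the introns, at 1.54 ± 0.16 (edgeR adjusted p = 3.5e-11), with the exons at 1.36. That intron value sat close to the fold threshold, and the median intron difference over all genes was 0.51. The rise of dlx3.S rested on 1, 1 and 0 reads against 5, 8 and 10, and was lost on leaving out single libraries.

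Grainyhead-like and Foxi genes were not called in collection G. Levels of grhl3.L were 6.73, 5.01 and 6.51 TPM with GFP MO and 14.3, 10.609 and 12.7 TPM in the morphants. That difference of 0.95 ± 0.18 passed the adjusted p (edgeR, 6.8e-05) but not the fold threshold. The foxi4.2 copies parted. For foxi4.2.L the difference was -0.03 ± 0.16 and for foxi4.2.S -1.02 ± 0.14 (edgeR adjusted p = 6.4e-08), from 52.9, 45.5 and 39.3 TPM to 24, 21.6 and 26.1 TPM. In foxi1.L the morphant libraries spread from 1.01 to 7.01 TPM around the control values of 3.77 to 4.76 TPM.

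In collection F, the double MO left 3 of the 20 genes higher (dlx3.L, dlx3.S and dlx5.L) and 4 lower (both copies of tfap2a and of foxi1), against 2.24% and 1.62% of all genes. The triple MO left 2 higher (dlx3.S and dlx5.L) and 7 lower (both copies of tfap2a, tfap2c and foxi1, and foxi4.2.S), against 3.86% and 2.83%. Both were set against the same 3 GFP MO libraries, so their values are given side by side. Levels of tfap2a.L were 15.1, 16 and 13.7 TPM with GFP MO, 0.672, 0.532 and 1.03 TPM with the double MO and 0.417, 0.392 and 0.565 TPM with the triple MO. The differences from GFP MO were -4.34 ± 0.21 (double, edgeR adjusted p = 2e-22) and -5.07 ± 0.24 (triple, edgeR adjusted p = 1.6e-23). For tfap2a.S they were -4.34 and -4.39.

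The introns of tfap2c.L stepped down, from 2.87, 3.04 and 3.22 RPKM with GFP MO to 1.63, 1.72 and 1.85 with the double MO and 0.875, 0.894 and 0.713 with the triple MO. The 3 groups did not overlap. Its exons did not follow, at 162 to 169 TPM with GFP MO and 167 to 194 TPM with the triple MO. The introns of tfap2c.S were at 1.07 to 1.66 RPKM with GFP MO and 0.412 to 0.532 RPKM with the triple MO (-1.68 ± 0.16, edgeR adjusted p = 8.7e-13).

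Rises were again in dlx5. From 1 read in each GFP MO library, 0.16, 0.126 and 0.131 TPM, dlx5.L rose to 2.41, 2.17 and 2.72 TPM with the double MO (3.97 ± 0.60, edgeR adjusted p = 9e-07) and 7.09, 3.37 and 4.18 TPM with the triple MO (4.97 ± 0.50, edgeR adjusted p = 9.3e-12). The S copy was at 9.19, 10.2 and 8.43 TPM with GFP MO, 21.7, 22.1 and 19.4 with the double MO and 24.3, 26.1 and 20.3 with the triple MO. Its triple MO difference of 1.299 ± 0.16 (edgeR adjusted p = 3.1e-09) was below the fold threshold, with no overlap between groups. For grhl3.L the triple MO difference was 0.55 ± 0.14 (edgeR adjusted p = 0.0025), also below it. The dlx3 copies stayed under 2 TPM in all these libraries, and their calls were lost on leaving out single libraries.

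Among Foxi genes, foxi1.L was at 7.5, 8.97 and 10 TPM with GFP MO, 2.43, 3.33 and 3.42 with the double MO and 1.88, 1.69 and 3.78 with the triple MO (-1.94 ± 0.32, edgeR adjusted p = 2.6e-06). The double MO call was lost without GFP MO replicate 3 or double MO replicate 1. Its S copy had 3, 4 and 5 reads with GFP MO and 0 in all 6 morphant libraries, at least 1.45-fold lower with the double and 1.36-fold with the triple MO, and its calls were lost when most single libraries were left out. The foxi4.2.S introns fell from 12.7, 14.3 and 15.4 RPKM to 4.71, 4.28 and 4.71 RPKM with the triple MO (-1.68 ± 0.17, edgeR adjusted p = 3.6e-11). Its exons were at -1.299 ± 0.12, whereas foxi4.2.L exons were at -0.09 ± 0.15.

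Between the triple and the double MO, 0 of the 20 genes were called by edgeR (0.257% of all genes higher and 0.696% lower), 7 at an unadjusted p below 0.05 and 0 by DESeq2. Of the differences with an adjusted p below 0.05, those furthest from 0 were in introns, at -1.06 ± 0.15 for tfap2c.L (edgeR adjusted p = 1.3e-06) and -1.21 ± 0.18 for foxi4.2.S (edgeR adjusted p = 2.5e-06). In the single libraries of collection E, tfap2a.L was at 23.7 TPM untreated, 22.5 with GFP MO and 2.11 with pou5f3.3 plus sox3 MO. For dlx5.L the values were 0.482, 0.327 and 5.9 TPM, and for foxi1.L 32.8, 15.3 and 1.35 TPM.

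**Figure D3:**
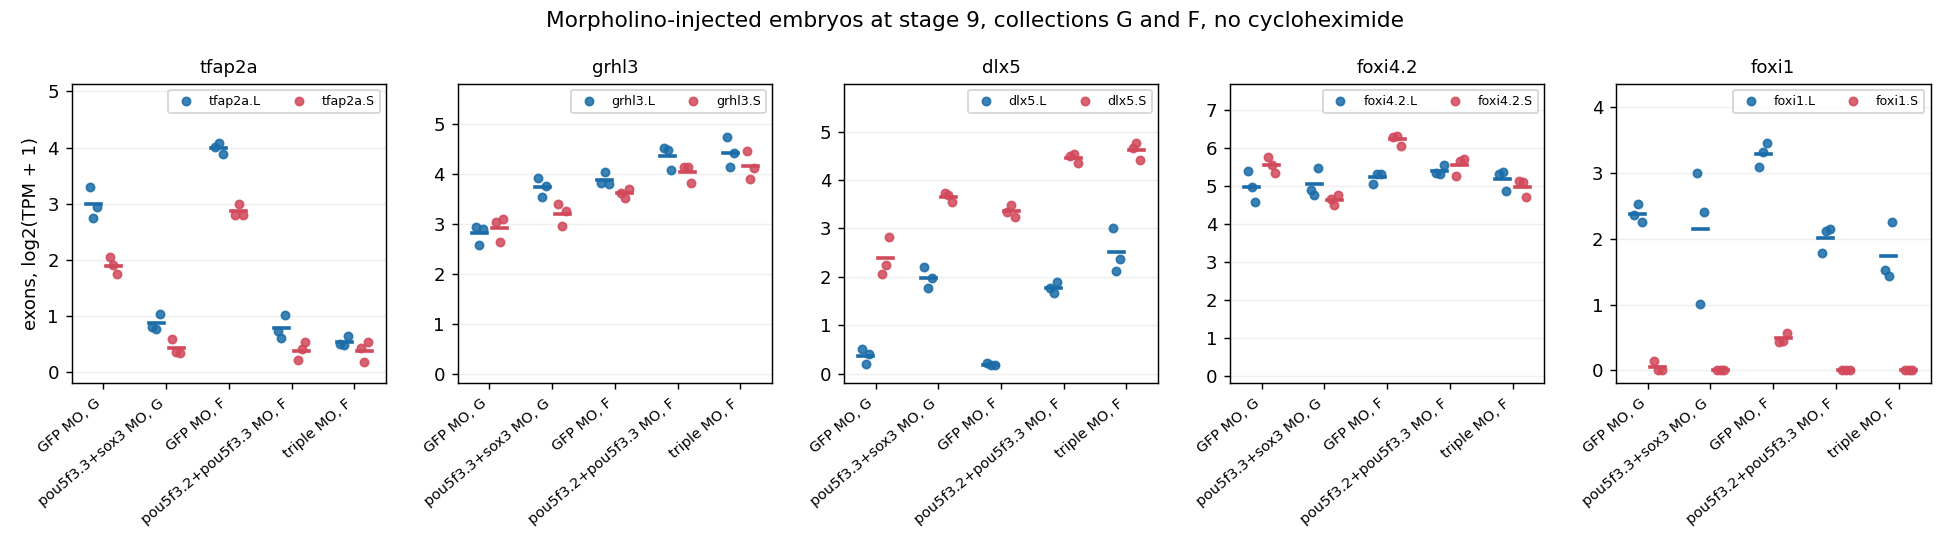
Exon levels of 5 pairs in collections G and F without cycloheximide, on a log2(TPM + 1) scale, with each library as a point and the mean of the log2 values as a bar. In every morphant group the tfap2a points lie below their GFP MO points and the dlx5.L points above theirs, while foxi4.2.S lies lower and foxi4.2.L overlaps its controls.

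Markers of other tissues were measured in the same libraries. Of 46 mesoderm and endoderm genes tested, 8 were higher and 2 lower with the triple MO than with GFP MO. Their summed level was 973 to 1083 TPM with GFP MO, 1257 to 1401 with the double MO and 1146 to 1466 with the triple MO, and 1 of the 46 genes was at 0 in every GFP MO library and 4 in every triple MO library. Of 28 neural genes, 2 were higher and 8 lower, with sums of 2459 to 2482 TPM (GFP MO) and 2338 to 2385 TPM (triple MO). Of 47 epidermal effector genes tested (keratins, adhesion and matrix genes), 8 were higher and 3 lower. The sums over the 49 genes listed were 6241 to 6287 TPM with GFP MO and 6655 to 6884 TPM with the triple MO. With triptolide in collection B, the mean sums were 6758 TPM (epidermal) and 2133 TPM (neural), against 6237.5 and 2322 TPM in DMSO. Most of the epidermal and neural sums was thus also present with transcription blocked, so they do not measure expression begun in the embryo. The mean mesoderm and endoderm sum was 456 TPM with triptolide and 1381 TPM in DMSO of collection B. Part of that sum was therefore also present with transcription blocked. Among the epidermal effectors the largest rise was in the introns of pkp3.S, which encodes a plakophilin of cell junctions, from a mean of 0.017 to 0.214 RPKM. The largest fall was in the exons of krt12.4.L, a keratin gene, from 2.88 to 0.346 TPM. Over all genes 3.86% were higher and 2.83% lower in this comparison. The part of such shifts in the values of the epidermal regulators was not tested.

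With cycloheximide present, every call among the 20 genes in collections C and D was a decrease. In collection C, pou5f3.3 MO lowered 1 of the 20 genes and raised 0 (0.67% and 0.0217% of all genes). It was tfap2a.S, at 3.66 and 4.74 TPM with GFP MO and 1.59 and 1.3 TPM in the morphants (-1.51 ± 0.22, edgeR adjusted p = 1.5e-05). The number was 0 without GFP MO replicate 2 and 4 without GFP MO replicate 1. With sox3 MO, 0 of the 20 were called by edgeR (0.0181% of all genes lower and 0% higher), 2 at an unadjusted p below 0.05 and 0 by DESeq2.

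With both morpholinos in collection C, 8 of the 20 genes were lower and 0 higher (2.17% and 0.0399% of all genes). They were both copies of tfap2a, grhl3 and foxi4.2, with tfap2c.S and grhl1.L. The tfap2a.S copy was at 0.189 and 0.327 TPM (-3.98 ± 0.34, edgeR adjusted p = 2.1e-12), and tfap2a.L at 1.78 and 2.36 TPM against 5.07 and 8.58 with GFP MO (-1.71 ± 0.25, edgeR adjusted p = 4.2e-06). The foxi4.2.S copy fell from 13 and 24.6 TPM to 2.8 and 2.25 TPM (-2.89 ± 0.30, edgeR adjusted p = 8e-10). Of dlx5.L, 5.83 and 7.94 TPM with GFP MO and 3.96 and 4.25 TPM with both MO were measured (-0.73 ± 0.27, edgeR adjusted p = 0.21). The 2 GFP MO libraries differed in these genes, and the number called was 4 without replicate 2 (tfap2a.L, tfap2a.S, grhl3.L and foxi4.2.S), 11 without replicate 1, and 5 without replicate 1 of the double morphants.

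The response to pou5f3.3 plus sox3 MO without cycloheximide in collection G and with it in collection C was compared by an interaction term, chosen after the values had been seen. It was higher in G for 8 of the 20 genes and lower for 0 (3.89% and 0.156% of all genes). They were both copies of grhl1, grhl3, dlx5 and foxi4.2. Collection, GFP MO dose and cycloheximide differ together there and cannot be told apart, and the number was 5 without GFP MO replicate 2 of collection C.

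At the higher doses of collection D, 14 of the 20 genes were lower and 0 higher (8.04% and 0.0616% of all genes). The 14 were all the activated genes but dlx3.S. Both tfap2a copies fell by 5.78 on the log2 scale, tfap2a.L from 8.73 and 8.8 TPM to 0.14 and 0.154 TPM (SE 0.38, edgeR adjusted p = 3.7e-17). Levels of dlx5.L fell from 6.51 and 7.53 TPM to 0 in both libraries, at least 20.8-fold lower, and those of dlx5.S from 6.68 and 5.18 TPM to 0.589 and 0.585 TPM (-3.25 ± 0.45, edgeR adjusted p = 1e-07). For grhl3.L, 6.02 and 5.63 TPM became 0.163 and 0.18 TPM, and for foxi4.2.L 8.56 and 8.32 became 0.298 and 0.659 TPM. Doses and collections both differ between C and D, so their effects cannot be told apart. Within D the morphants had 55 ng plus 75 ng of MO and the controls 80 ng of GFP MO. The total amount injected was thus higher in the morphants, and its part in these falls was not tested.

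**Figure D4:**
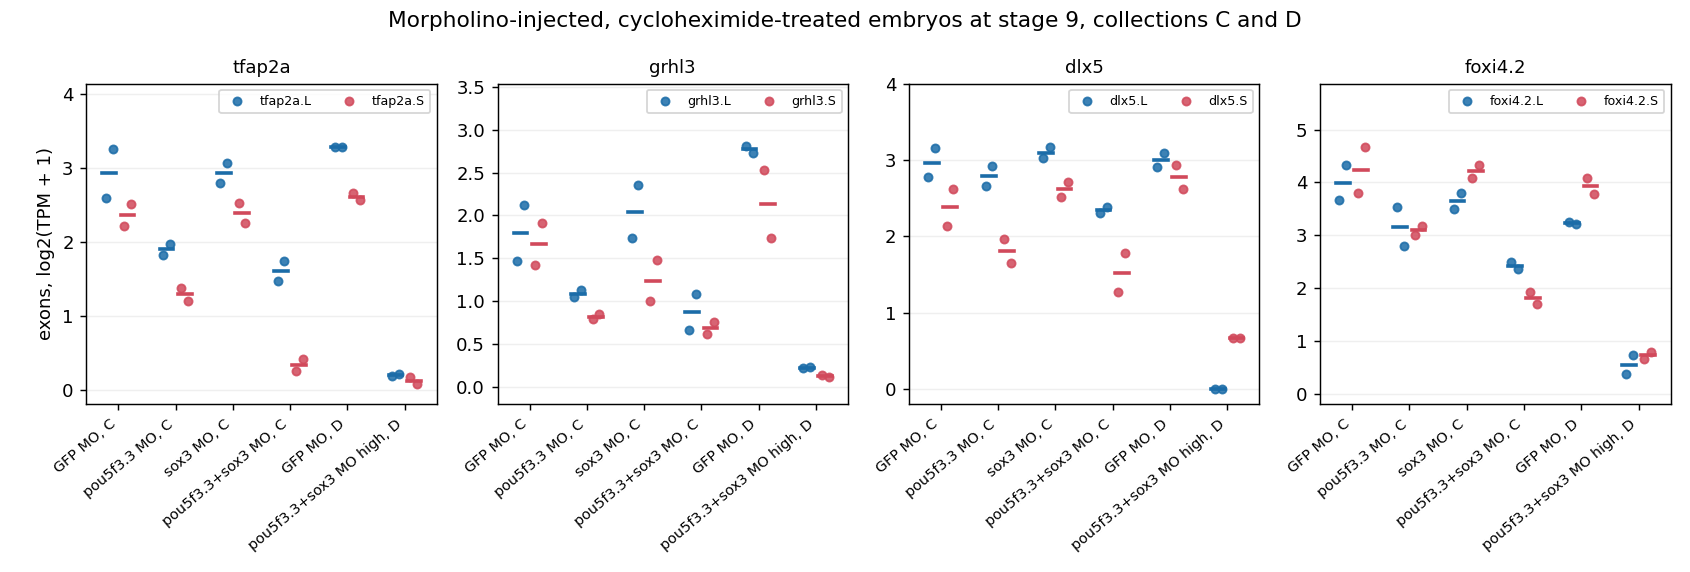
Exon levels of 4 pairs in the cycloheximide-treated embryos of collections C and D, on a log2(TPM + 1) scale, with each library as a point and the mean of the log2 values as a bar. The high-dose libraries of collection D lie near 0 for tfap2a, grhl3, foxi4.2 and dlx5.L, and the sox3 MO libraries of collection C overlap or lie close to their controls.

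In collection F, cycloheximide was given with the triple MO but not with GFP MO, so the only comparison within that collection is with the triple MO alone. Of the 20 genes, 13 were lower and 0 higher (31.2% and 0.514% of all genes). Levels of grhl3.L were 25.8, 16.6 and 20.5 TPM with the triple MO and 1.1, 1.67 and 0.768 TPM with cycloheximide added (-4.16 ± 0.22, edgeR adjusted p = 4e-23). For dlx5.S they were 24.3, 26.1 and 20.3 TPM and 1.02, 3.06 and 1.66 TPM (-3.65 ± 0.22, edgeR adjusted p = 6.1e-21). Those of dlx5.L were 7.09, 3.37 and 4.18 TPM and 2.97, 3.05 and 3.35 TPM (-0.64 ± 0.25, edgeR adjusted p = 0.03), short of the fold threshold. The calls of tfap2a.S and foxi4.1.S were lost when several single libraries were left out.

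In the libraries of collection H labelled as discarded, triple MO with cycloheximide left 7 of the 20 genes lower than GFP MO with cycloheximide and 0 higher (2.6% and 2.11% of all genes). They were both copies of tfap2a, tfap2c and foxi1, with foxi4.2.S. Levels of tfap2a.L were 8.54, 9.13 and 9.9 TPM and 1.46 and 2.44 TPM (-2.32 ± 0.25, edgeR adjusted p = 1.1e-10). For dlx5.L they were 5.6, 6.02 and 11.1 TPM and 8.37 and 12.53 TPM, overlapping. The authors left these libraries out of their later analyses, judging that the cycloheximide treatment had likely gone wrong. They based this on expression closer to that of untreated embryos.

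The 2 copies of a gene were compared by limma on log2(L TPM + 1) minus log2(S TPM + 1), where a pair was called at an adjusted p below 0.05 and a difference of at least 1. In untreated stage 9 embryos of collection A, 3 of the 10 pairs were called (42.2% of 6796 pairs tested). They were dlx5 at -2.95, foxi1 at 2.80 and foxi4.1 at 1.07, the last falling to 0.96 without replicate 1. In DMSO of collection B tfap2a (1.13), dlx5 (-2.42) and foxi1 (4.03) were called (42.7%), and at stage 10.5 dlx3 (-1.16), dlx5 (-1.09) and foxi2 (-1.25) (45.2%). Reads that map to both copies were not counted by the default of the counting program, and how far that affected these levels was not tested.

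The balance of dlx5 moved with stage and treatment. The L share of its summed TPM was 5.96% at stage 9 in collection A and 31.9% at stage 10.5, a shift of 1.87 in the L minus S difference (limma adjusted p = 9.0e-07). That comparison called 2 of the 10 pairs, the other being foxi1 at -2.79, where 26.1% of all pairs were called. The dlx5 L share was 6.62% ± 1.60 (SD, n = 2) in DMSO of collection B and 61.2% ± 0.186 (SD, n = 2) in cycloheximide. The shift in the L minus S difference, DMSO minus cycloheximide, was -2.99 ± 0.28 (limma adjusted p = 6.27e-09), and 2 of the 10 pairs were called (2.22% of all pairs), the other being foxi1 at 3.70. Against triptolide 3 pairs were called in DMSO (1.99%) and 0 in cycloheximide (1.22%).

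Morpholinos moved the same balance. The dlx5 L share went from 1.49% ± 0.25 with GFP MO of collection F to 17.01% ± 5.58 with the triple MO (SD, n = 3 each). The triple MO shifted 3 of the 10 pairs (1.24% of all pairs), which were foxi4.2 by 1.19 ± 0.15 (limma adjusted p = 1.13e-06), dlx5 by 1.06 (limma adjusted p = 0.00193) and foxi1 by -1.07 (limma adjusted p = 0.0343). Without GFP MO replicate 2, or without triple MO replicate 1, the number was 1. With a pseudocount of 0.1 the foxi1 value turned to 0.43. The foxi4.2 L share was 33.2% with GFP MO, 47.4% with the double MO and 53.6% with the triple MO, and in collection G 40.1% with GFP MO and 57.3% with pou5f3.3 plus sox3 MO.

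Neither collection G nor the double MO gave a called pair (0 of 10 in each, where 0.662% and 0.75% of all pairs were called), although foxi4.2 shifted by 0.97 (limma adjusted p = 9.3e-05) and 0.85 (limma adjusted p = 0.0005). The mean dlx5 L share was 6.98% with GFP MO and 20.4% in the morphants of G. In F it was 1.49% with GFP MO and 10.4% with the double MO, and libraries did not overlap in either collection. The dlx5 shifts in the L minus S difference were 0.34 and 0.48 (limma adjusted p = 0.645 and 0.347). A pseudocount of 0.1 gave 1 pair in each. Between the triple and double MO 0 pairs were called (0.221%). Cycloheximide added to the triple MO shifted 1 pair, dlx5, by 2.67 (limma adjusted p = 2.03e-10), where 2.37% of all pairs were called.

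**Figure D5:**
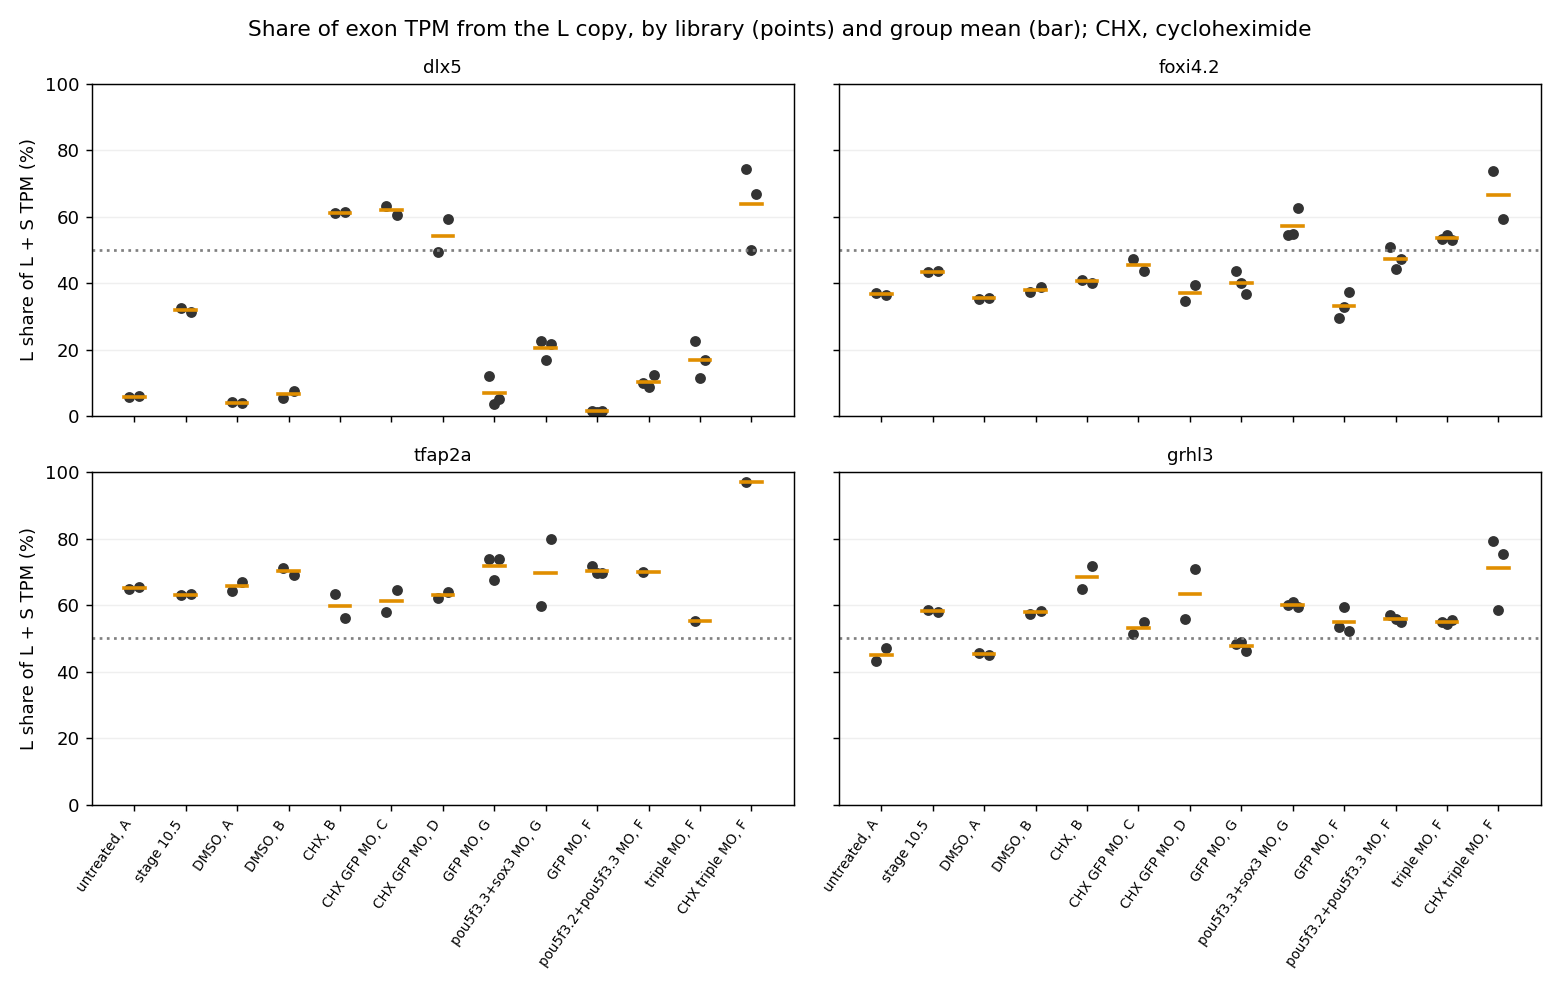
L share of the summed L and S exon TPM, in percent, for 4 pairs in 13 groups, with each library that reached 1 TPM in the sum as a point, the group mean as a bar and equal shares as a dotted line. The dlx5 share is above 50% on average only in the groups with cycloheximide, and in collections G and F the foxi4.2 share is higher in the morphant groups shown than in their GFP MO controls.

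Over the 26 groups outside collection H, group means of log2(TPM + 1) were correlated between genes as a description, since groups share collections and controls. The 2 copies were alike for tfap2a (r = 0.986), grhl3 (0.989), dlx3 (0.989) and foxi4.2 (0.986). In contrast, dlx5.S was most like grhl3.L among the 20 genes (0.971), and dlx5.L was most like tfap2c.L (0.779). Among 14697 genes, those most like tfap2a.L were sfrp2.L (0.947), sfrp2.S (0.937) and sox21.S (0.935), and those most like dlx5.L were msx1.L (0.932), gata3.S (0.927) and slc25a29.L (0.922). For grhl3.L they were sp5l.S (0.986), kirrel2.S (0.985) and ackr3.L (0.978), and for foxi4.2.L cxcr4.L (0.987), cdc25b.L (0.973) and fgf8.S (0.969).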

How the data were processed

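RNA-seq libraries of whole embryos were analysed from 4 kinds of table deposited by the authors (exon and intron counts, TPM and RPKM), who aligned reads with HISAT2 (2.2.1 in the submitters' processing notes) and counted read pairs with featureCounts 2.0.1 on X. laevis v9.2 gene models, reversely stranded. The deposited exon and intron counts were tested as they stood. The deposited TPM values were made by the authors from exon counts, and the deposited intron RPKM values are scaled by exon counts. Intron models left out regions covered at stage 5, other exons and repeats. COX2 and COX3 transcripts had been removed from stage 5 libraries, and those of stage 10.5 carried synthetic spike-in RNA. Counts on genes without a TPM value were 0.0672% to 0.885% of exon counts.

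Exon rows needed a CPM of 0.5 in a library (27602 genes), and intron rows over 10 counts and 0.25 RPKM (9916 genes). One model over 53 libraries outside collection H was fitted with edgeR 4.0.16 (TMM, quasi-likelihood, Benjamini-Hochberg). Collection H was added in a further model. Copies were compared with limma 3.58.1 (R 4.3.3) on log2(TPM + 1). Alternatives were DESeq2 1.42.0, its size factors, exon or intron rows alone, no filter, a log2 threshold of 1, the compared groups alone, a pseudocount of 0.1, a replicate block and leaving out each library. Scripts were tested on simulated data.

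The members and gene lists were chosen with earlier results of these data known. All 20 members are accounted for. Other genes named are the 3 with the highest correlation to tfap2a.L, grhl3.L, dlx5.L and foxi4.2.L, and from each list the genes with the largest change each way with the triple MO or the highest level, of which some are not reported here. The reference table (RefSeq, Xenopus_laevis_v10.1) named 19 of the 20 and was used for names only, since builds differ. No sequences were used here. Intervals of counts cover counting error only.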

Additional observations from a re-analysis of the deposited data

Results flagged for a closer look

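The effect of pou5f3.3 plus sox3 MO without cycloheximide (collection G) differed from that with cycloheximide (collection C) for 8 of the 20 genes, all higher in G, where 3.89% of all genes were higher and 0.156% lower. The difference between the 2 effects was tested by edgeR's quasi-likelihood interaction term, chosen after the values had been seen. Collection, GFP MO dose and cycloheximide differ together between G and C and cannot be told apart. Values are log2 differences, effect in G minus effect in C. For dlx5.L the value was 3.85 in exons (edgeR adjusted p = 5.15e-06) and 3.59 in introns (4.77e-06), and for dlx5.S 2.50 (0.000194) and 2.69 (5.33e-07). The dlx5 copies rose with the morpholinos in G, while in C they were lower without passing the test. For grhl3.L the value was 2.51 (edgeR adjusted p = 0.000402) and 3.11 (1.25e-06), and for grhl3.S 2.06 (0.0125) and 2.14 (0.0370). The introns of grhl1.L gave 1.57 (0.0105) and those of grhl1.S 2.05 (1.81e-05). The exons of foxi4.2.L gave 1.77 (0.000629) and those of foxi4.2.S 1.86 (0.000254). Without GFP MO replicate 2 of collection C the number was 5, and over all single libraries left out it ranged from 5 to 9. Among AP-2 genes, tfap2a.L went the other way (-1.46 in exons, edgeR adjusted p = 0.0243, and -1.47 in introns), short of the fold threshold.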

How the results depend on the processing

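Of the 3251 alternative values for single genes and pairs, 3117 kept direction and side of the threshold, 133 dropped below it and 1 reversed, the foxi1 pair with the triple MO (0.43 with a pseudocount of 0.1). The number of members called changed by over 1.5 times as follows. With exon rows alone it was 1 for stage 8 against 5 (2 otherwise), 9 for DMSO against triptolide in A and in B (15), 4 in G (7), 8 for cycloheximide with the triple MO (13), 4 for both MO in C (8) and 9 in D (14). With intron rows alone it was 1 for stage 8, 9 for stage 10.5 against 9 (16), 4 for the double MO (7) and 2 for the difference between triptolide effects (0). With only the compared groups in the fit it was 1 for stage 8 and 5 for both MO in C. DESeq2 gave 6 for stage 8, 2 for pou5f3.3 MO in C (1) and 1 for the triptolide difference, as did no filter. A log2 threshold of 1 gave 2 for triple against double MO (0) and 4 for pou5f3.3 MO in C. A pseudocount of 0.1 gave 1 pair in G (0), 1 with the double MO (0) and 2 for cycloheximide with the triple MO (1).

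Leaving out single libraries gave 1 to 3 for stage 8, 0 to 1 for triple against double MO, 0 to 4 for pou5f3.3 MO in C, 4 to 11 for both MO in C, and 5 to 9 for the interaction. For pairs it gave 0 to 1 in cycloheximide against triptolide and in G, and 1 to 3 with the triple MO. The causes of these changes were not tested, beyond the fewer rows or samples tested by construction. Libraries of equal number deviated together in collections A (correlations of 0.173 to 0.254) and D (0.345), each with only 2 numbers, and not in the others (lowest -0.533, in B), so numbers were not taken as pairs. A replicate block gave 12 in place of 13 for cycloheximide with the triple MO and changed no other number called, and crossed pairing in B gave 15 and 14, as without it. Calls over all genes moved by over 1.5 times in 57 of 271 comparisons and settings. Genes with few reads (dlx3, foxi1.S, foxi4.1) are limited by depth.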

Other observations

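Genes outside the 20 were counted in lists. Over all genes, 25.7% rose and 14% fell between stages 9 and 10.5, 3.86% were higher and 2.83% lower with the triple MO, and 8.04% were lower in the high-dose morphants. Of 15 tested genes from a list of other AP-2, Grainyhead-like, CP2, Distal-less and Foxi genes, 7 rose and 1 fell between stages 9 and 10.5. With the triple MO 1 was higher and 0 lower, and 4 were lower in the cycloheximide-treated high-dose morphants. Of 47 epidermal effector genes, 30 rose and 0 fell between stages 9 and 10.5. With the triple MO, 8 were higher and 3 lower, and 12 were lower in the high-dose morphants. The keratin gene krt12.4.S went from a mean of 0 TPM at stage 9 to 62.3 TPM at stage 10.5. Of 38 genes of the BMP pathway and its targets, 24 rose and 7 fell between these stages, 10 were higher and 2 lower with the triple MO, and 27 were lower in the high-dose morphants. Among them gata2.S, a GATA factor of the ventral ectoderm and mesoderm, went from 0.658 to 147 TPM between the stages.

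The low transcript level of foxi4.1.L followed collections more than treatments in collections A to D, F and G. It was at 1.54 and 1.02 TPM in untreated, 1.53 and 0.937 in DMSO-treated and 1.29 and 0.898 in triptolide-treated embryos of collection A, at 2.18 and 3.14 TPM with GFP MO and cycloheximide in collection C, and with 0 reads in 5 of the 6 libraries of collection B and 1 read in the other. In collections D, F and G it had at most 2 reads in a library. In collection E, with 1 library per group, the summed L and S level was under 1 TPM untreated. It reached 1 TPM with GFP MO and with pou5f3.3 plus sox3 MO, where the L share was 95.8% and 100%. The cause was not tested.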
